A study of Homo sapiens with 12 samples.

Results

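EPH receptors and ephrins were represented by 10 genes, the 6 receptors *EPHA1*, *EPHA2*, *EPHA4*, *EPHB2*, *EPHB3* and *EPHB4* and the 4 ligands *EFNA1*, *EFNA5*, *EFNB1* and *EFNB2*. They are 10 of the 58302 rows of the count table, found by the symbol of each Ensembl identifier. The set was chosen by the value of *EPHB3*, whose transcript was already known to be higher in MIB1 KO than in MIB1 WT cells with BMP-on, so the values of that contrast are described here and not tested. Transcripts were measured by RNA-seq in MIB1-iKO cells, cells grown from single-cell clones of the lung cancer line NCIH838 that carry Cas9 under a doxycycline (Dox) switch together with a guide RNA against *MIB1*. Every culture spent 3 days in 50 nmol/L LDN, which blocks BMP receptor kinases, and then 24 hours with 10 ng/mL BMP4. MIB1 KO cells received 0.5 μg/mL Dox during the 3 days and MIB1 WT cells were the same line without Dox, so an effect of Dox itself and an effect of *MIB1* loss cannot be told apart. LDN stayed in the medium for the 24 hours in BMP-off cultures and was left out in BMP-on cultures. BMP4 was thus present in every group. A BMP response, or a change with BMP, means BMP-on against BMP-off, which is the removal of LDN under BMP4. Other effects of LDN and those of BMP signaling cannot be told apart. Each of the 4 groups (WT BMP-off, WT BMP-on, KO BMP-off, KO BMP-on) had 3 libraries. The labels do not say whether these came from separate cultures, so the p-values measure the spread between libraries, which may be technical.

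EPH proteins are receptor tyrosine kinases on the cell surface, and their ephrin ligands are also held on the membrane, so that signals pass between cells in contact. A-type ephrins are anchored by a lipid and bind mainly EPHA receptors, whereas B-type ephrins span the membrane and bind mainly EPHB receptors. In epithelia the system is known for keeping cell populations apart and for controlling adhesion and movement, and *EPHB2* and *EPHB3* are known targets of Wnt signaling in the intestinal crypt.

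The libraries held 19124010 to 29498000 counts. *MIB1* reached 144 to 176 CPM (counts relative to the library size, scaled by TMM) in the 6 WT libraries and 31.0 to 34.4 CPM in the 6 KO libraries, and *ID1*, a direct target of BMP signaling, reached 48.6 to 69.8 CPM with BMP-off and 101 to 143 CPM with BMP-on, so all 12 libraries followed their labels. Of the epithelial markers, the keratins *KRT8* (92.7 to 192 CPM) and *KRT18* (139 to 166 CPM) were high, *EPCAM* and *CDH1* stayed under 10 CPM, and *KRT19* had 12 counts in all libraries together. The 4 alveolar lineage markers summed to 0.311 to 1.07 CPM and *NKX2-1* had 1 count. The 5 leukocyte markers summed to at most 0.383 CPM with *PTPRC* at 0, and the 5 endothelial markers to at most 1.85 CPM. The 5 fibroblast markers summed to 12.6 to 22.1 CPM with BMP-off and 30.5 to 43.5 CPM with BMP-on, nearly all of it *COL1A1*, whereas *COL1A2* and *DCN* had 24 and 13 counts in all. This sum moved with the BMP-on groups, and its part in the results was not tested.

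*EPHA2* and *EFNA1* were the most abundant receptor and ligand transcripts. Levels are compared between genes per length, as reads scaled to the length of the gene model and to the library (RPKM). *EPHA2* averaged 40.6 RPKM over the 12 libraries (33.5 to 44.8), *EFNA1* 31.8 RPKM (25.1 to 40.8), and these ranges overlapped. *EPHB4* followed at 16.9 RPKM (13.3 to 18.8), clear of both neighbors in the order. *EFNA5* averaged 7.03 RPKM and overlapped with *EFNA4* at 7.75 RPKM, a ligand outside the 10 genes. *EFNB1* stood alone at 1.89 RPKM (1.57 to 2.09). At the low end were *EPHB2* at 0.329 RPKM, *EFNB2* at 0.163 RPKM and *EPHB3* at 0.162 RPKM, of which *EFNB2* and *EPHB3* could not be ranked against each other.

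*EPHA2* alone made up 69.6% of the summed RPKM of all 14 EPH receptor genes (67.5% to 71.5% over libraries) and *EPHB4* a further 29% (27.0% to 31.2%). *EPHB3* made up 0.277%. Among the 8 ephrin genes, *EFNA1* held 60.2% (56.4% to 64.0%), *EFNA5* 13.5% and *EFNB1* 3.64%. Of the ligands outside the 10 genes, *EFNA4* held 14.7% and *EFNA3* 6.53%. The cells thus carried mainly 1 A-type and 1 B-type receptor transcript, with ligand transcripts that were mostly A-type. *EPHA1* had 9 counts spread over 5 libraries and *EPHA4* had 1 count in all, so that 8 of the 10 genes passed the filter on low counts and were tested. Of the 12 further EPH and ephrin genes, 4 were tested (*EPHA10*, *EFNA3*, *EFNA4*, *EFNB3*), and *EPHA3* and *EPHA7* had no counts at all, where 3 counts over the 12 libraries would correspond to 0.00994 CPM.

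**Figure D1:**
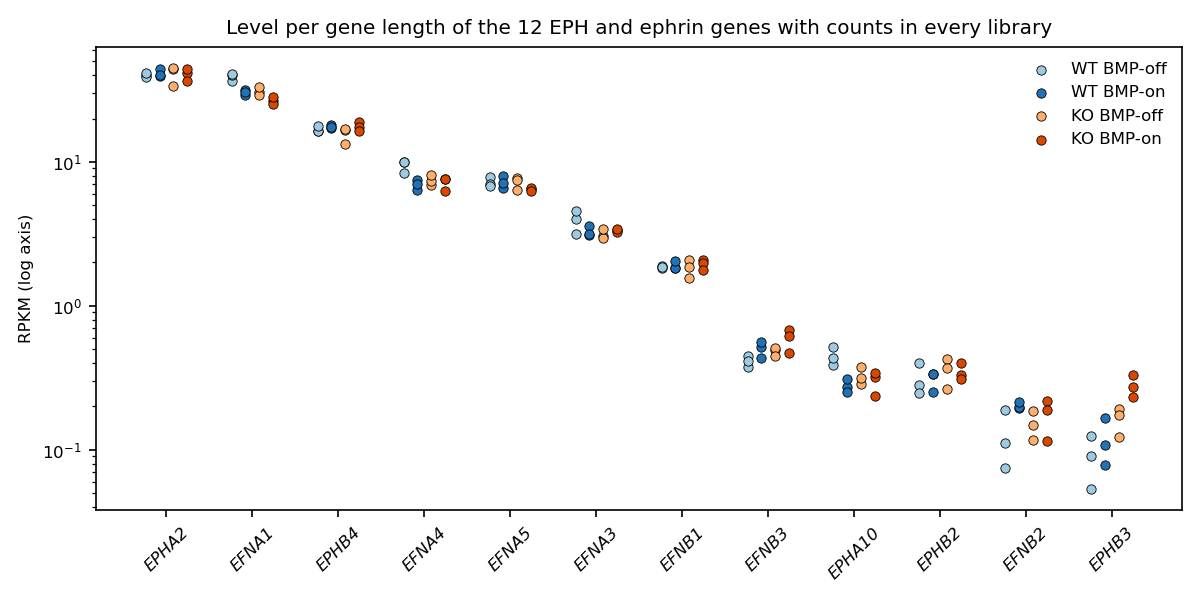
Level per gene length (RPKM, log axis) of the 12 EPH and ephrin genes with counts in every library, ordered by their mean, with 1 point per library and colors for the 4 groups. *EPHA2*, *EFNA1* and *EPHB4* lie above 13 RPKM in every library, and *EFNB2* and *EPHB3*, which overlap, lie lowest, with *EPHB3* between 0.0533 and 0.331 RPKM.

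*EPHB3* (ENSG00000182580) encodes a B-type receptor and spans 184561785 to 184582408 on the plus strand of chromosome 3 (GRCh38). Its promoter and that of *EFNA1*, the genes that stood out among the receptors and the ligands, are shown as the 200 bases before each RefSeq start (GRCh38.p14, strand of the gene, 5′ to 3′). Capitals mark GGCGCC, a GC-rich element that SMAD1 and SMAD5 can bind, which was searched on both strands and reads alike on each.

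EPHB3 (chr3:184561585-184561784): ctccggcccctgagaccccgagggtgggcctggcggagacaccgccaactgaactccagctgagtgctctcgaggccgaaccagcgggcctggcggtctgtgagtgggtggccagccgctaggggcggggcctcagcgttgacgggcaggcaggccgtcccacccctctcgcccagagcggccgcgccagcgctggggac

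EFNA1 (chr1:155127676-155127875): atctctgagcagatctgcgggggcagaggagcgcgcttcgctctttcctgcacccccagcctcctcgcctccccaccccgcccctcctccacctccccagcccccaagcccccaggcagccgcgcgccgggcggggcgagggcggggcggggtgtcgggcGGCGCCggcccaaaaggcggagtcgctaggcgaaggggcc

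RefSeq windows of 250 bases before to 50 after the start were at hand for all 10 genes, 12 windows in all. GGCGCC occurred in those of *EFNA1* (40 bases before the start), *EPHB4* (15 bases before), *EPHA1* (184 bases before) and *EFNB2* (249 bases before and 26 after), against 19.2% of all 34943 windows. The TCF/LEF element ATCAAAG, searched on both strands as well, occurred in 0 of the 10 genes and in 2.63% of all windows. A match is a run of letters and not a measured binding site, and the absence of a match covers these windows only.

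With BMP-on, the *EPHB3* transcript was at its highest in MIB1 KO cells, in all 3 libraries above every library of the other groups, although it remained a rare transcript. WT BMP-off libraries held 14, 5 and 8 *EPHB3* counts (0.503, 0.217 and 0.364 CPM), and WT BMP-on libraries 16, 13 and 9 counts (0.675, 0.445 and 0.323 CPM). KO BMP-off libraries held 22, 12 and 17 counts (0.768, 0.482 and 0.715 CPM), and KO BMP-on libraries 25, 26 and 29 counts (0.958, 1.36 and 1.13 CPM). The WT groups overlapped each other, each overlapped with KO BMP-off, and only KO BMP-on stood apart from the other 3. With a correction for GC content, given below, KO BMP-on overlapped with KO BMP-off. Without the correction, 35.8% of all genes tested did not overlap between the 2 KO groups. Group means were 0.361 ± 0.143 CPM in WT BMP-off, 0.481 ± 0.179 CPM in WT BMP-on, 0.655 ± 0.152 CPM in KO BMP-off and 1.15 ± 0.201 CPM in KO BMP-on (SD, n = 3 each). With the counts of a group pooled, the exact 95% Poisson intervals, which cover counting error only, were 0.244 to 0.540 CPM in WT BMP-off, 0.333 to 0.646 CPM in WT BMP-on, 0.491 to 0.867 CPM in KO BMP-off and 0.894 to 1.40 CPM in KO BMP-on. The intervals leave out the spread between libraries. The BMP-on groups were used to choose *EPHB3*, so the intervals are a description and not a test.

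The log2 fold change of *EPHB3* between KO and WT cells with BMP-on, the value behind the choice of these genes, was 1.25 (standard error 0.306), with values from 1.03 to 1.54 when any single library was omitted. On the log2(RPKM + 1) scale the same difference was 0.19, since the pseudocount exceeds the level of the gene. Its BMP response was 0.78 in KO cells (standard error 0.289) and 0.35 in WT cells (standard error 0.383), and the 2 responses differed by 0.43 (standard error 0.488). The response in KO cells shares the KO BMP-on libraries with the contrast behind the choice, and that in WT cells the WT BMP-on libraries. Each value is thus given as a description. With single libraries omitted, the response in KO cells lay between 0.60 and 0.91, that in WT cells between 0.058 (without WT BMP-on replicate 1) and 0.70 (without WT BMP-off replicate 1), and their difference between 0.066 (without WT BMP-off replicate 1) and 0.71 (without WT BMP-on replicate 1).

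MIB1 KO against WT with BMP-off was the comparison of *EPHB3* that had played no part in its choice. The log2 fold change was 0.82 (standard error 0.361, 95% interval 0.06 to 1.59), with an unadjusted p of 0.0362 and an edgeR Benjamini-Hochberg adjusted p of 0.458, so the difference did not pass the threshold of 0.05. The adjusted p lay between 0.184 and 0.901 in the 23 alternatives that could be fitted. At 5 to 22 counts per library, a difference of this size was not resolved.

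**Figure D2:**
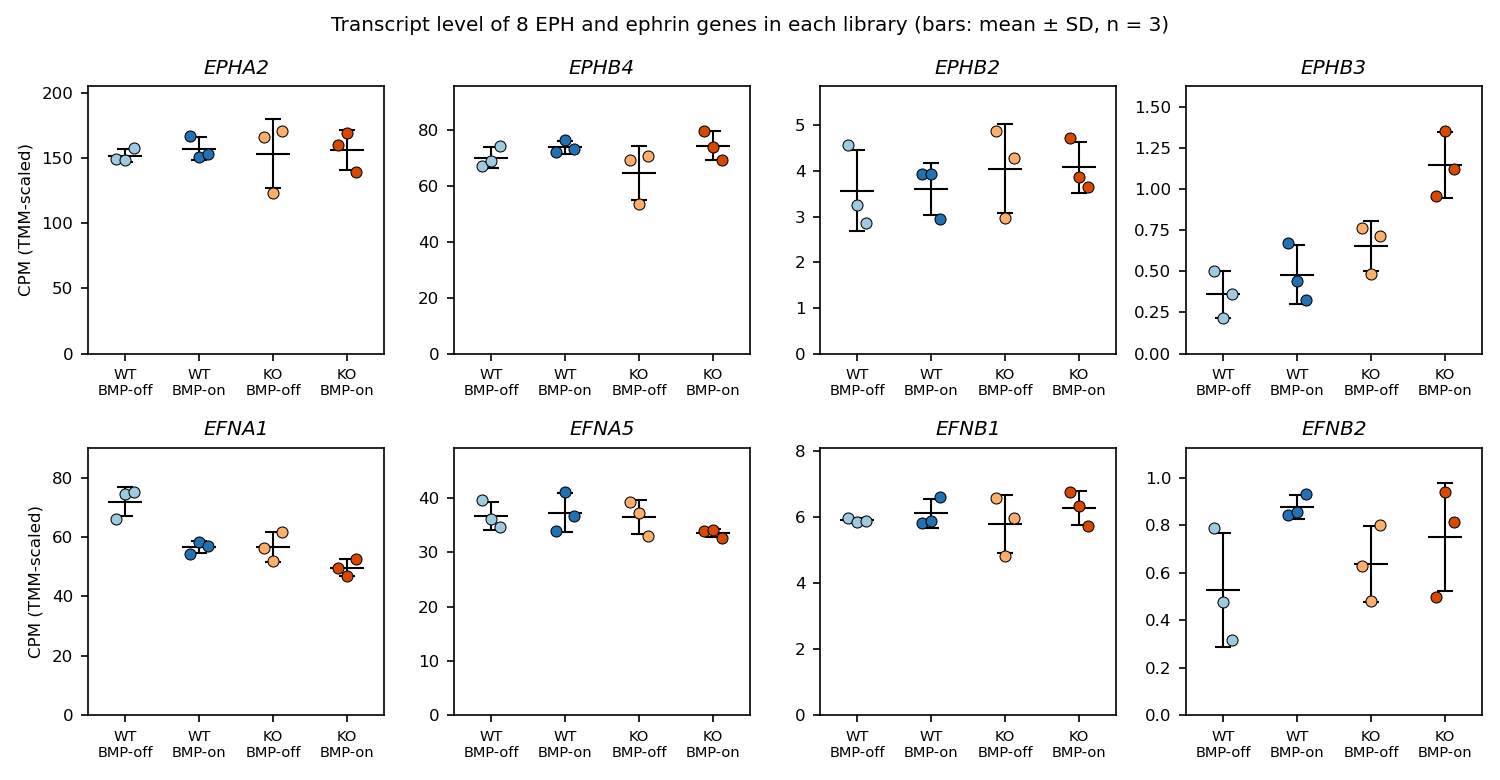
Transcript level (CPM, linear axis from 0) of the 8 tested genes in each library, with 1 point per library and the mean ± SD of each group (n = 3). *EPHB3* is highest in the 3 KO BMP-on libraries (0.958 to 1.36 CPM), and *EFNA1* is highest in the 3 WT BMP-off libraries (66.2 to 75.2 CPM).

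The other receptors were not called in a tested comparison. *EPHB2* (ENSG00000133216, chromosome 1, 22710839 to 22921500, plus strand), the closest B-type relative in the intestinal crypt, reached 4.56, 3.26 and 2.87 CPM in WT BMP-off, 3.92, 3.93 and 2.95 CPM in WT BMP-on, 4.89, 2.97 and 4.29 CPM in KO BMP-off and 4.71, 3.87 and 3.65 CPM in KO BMP-on libraries. All 4 groups overlapped. Its log2 fold change between KO and WT cells was 0.19 with BMP-on (standard error 0.203) and 0.17 with BMP-off (standard error 0.203, 95% interval -0.26 to 0.61, edgeR adjusted p = 0.771). The BMP response was -0.0049 in WT cells (95% interval -0.44 to 0.43) and 0.0075 in KO cells (95% interval -0.42 to 0.43).

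*EPHB4* (ENSG00000196411, chromosome 7, 100802565 to 100827523, minus strand) encodes the receptor of ephrin-B2 that is best known from veins. It reached 67.2, 69.0 and 74.2 CPM in WT BMP-off, 72.0, 76.5 and 73.1 CPM in WT BMP-on, 69.3, 53.6 and 70.8 CPM in KO BMP-off and 79.8, 73.9 and 69.4 CPM in KO BMP-on libraries. KO BMP-off replicate 2 lay well below the other 11 libraries, which ranged from 67.2 to 79.8 CPM. The BMP response of *EPHB4* in KO cells was 0.20 (standard error 0.0884, 95% interval 0.01 to 0.39, edgeR adjusted p = 0.114). In WT cells it was 0.08 (standard error 0.088, edgeR adjusted p = 0.754). Without KO BMP-off replicate 2 the response in KO cells was 0.08, and with a correction for GC content it was -0.03. Without KO BMP-off replicate 3 it was 0.26 and passed the threshold (edgeR adjusted p = 0.0315). Between KO and WT cells the log2 fold change was -0.12 with BMP-off (standard error 0.0885, edgeR adjusted p = 0.646) and 0.01 with BMP-on (standard error 0.0879).

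*EPHA2* (ENSG00000142627, chromosome 1, 16124337 to 16156069, minus strand) encodes the A-type receptor most often high in carcinoma cells. WT libraries held 149, 149 and 158 CPM with BMP-off and 167, 151 and 153 CPM with BMP-on, and KO libraries 166, 123 and 171 CPM with BMP-off and 160, 169 and 139 CPM with BMP-on. The groups overlapped in every comparison. Its log2 fold changes were 0.05 for BMP in WT cells, 0.03 for BMP in KO cells and 0.01 for KO against WT with BMP-off, each with a standard error of 0.111. The 95% intervals reached from -0.22 to 0.27 for BMP in KO cells and from -0.23 to 0.26 for KO against WT with BMP-off. With BMP-on, KO and WT cells differed by -0.01 (standard error 0.111). With the correction for GC content, the BMP response in KO cells was -0.19 (edgeR adjusted p = 0.0575). *EPHA1* had 0, 2, 3 and 4 counts over WT BMP-off, WT BMP-on, KO BMP-off and KO BMP-on, too few for a comparison, and the single *EPHA4* count was in KO BMP-off.

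*EFNA1* (ENSG00000169242, chromosome 1, 155127876 to 155134899, plus strand) encodes the main ligand of EPHA2. Its transcript was lower with BMP-on than with BMP-off in WT cells and was the only member called by edgeR in a tested comparison. Its level was 66.2, 74.6 and 75.2 CPM in WT BMP-off and 54.5, 58.5 and 57.0 CPM in WT BMP-on libraries. In KO cells it was 56.3, 51.9 and 61.8 CPM with BMP-off and 49.7, 46.9 and 52.8 CPM with BMP-on. The 3 WT BMP-off libraries thus lay above all 9 others, while KO BMP-off and KO BMP-on overlapped. Of all genes tested, 23.9% had no overlap between the WT groups, and the share with WT BMP-off apart from all other groups was not counted. Group means were 72.0 ± 5.02, 56.6 ± 2.03, 56.7 ± 5.0 and 49.8 ± 2.97 CPM (SD, n = 3 each). In bulk RNA, fewer cells with the transcript and less of it per cell cannot be told apart.

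In WT cells the log2 fold change of *EFNA1* with BMP was -0.34 (standard error 0.0698, edgeR adjusted p = 0.00796), so that the fitted level decreased by 21.3%. All 24 alternative fits called it, with values from -0.40 to -0.32. The highest edgeR adjusted p among them, without WT BMP-off replicate 2, was 0.0499 and lay at the threshold. A 2-fold threshold added to the adjusted p left *EFNA1* uncalled. Thus 1 of the 7 genes tested for a BMP response in WT cells (without *EPHB3*) was called, where 3.92% of all 17188 genes were called. In KO cells the log2 fold change with BMP was -0.19 (standard error 0.0709, edgeR adjusted p = 0.0719). It did not pass the threshold, and 0 of the 7 genes did by edgeR or by DESeq2, against 22.0% of all genes, although 2 (*EFNA1* and *EPHB4*) had an unadjusted p under 0.05, as had 35.5% of all genes. The value in KO cells passed it in 8 of 24 alternatives, among them those without WT BMP-off replicate 1 (-0.19), KO BMP-off replicate 2 (-0.25) or KO BMP-on replicate 3 (-0.24). The difference between the responses of WT and KO cells was 0.16 (standard error 0.0995, 95% interval -0.05 to 0.37, edgeR adjusted p = 0.562), and 0 of the 7 genes were called in that test by edgeR or DESeq2 or had an unadjusted p under 0.05, where 0.0931% of all genes were called and 10.6% had such a p.

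With BMP-off, *EFNA1* differed between KO and WT cells by -0.35 (standard error 0.0699), with an unadjusted p of 0.000147 and an edgeR adjusted p of 0.133. Of the 8 genes 0 were called by edgeR in this comparison, against 0.0407% of all genes, which is 7 genes in all. An unadjusted p under 0.05 was seen for 2 of them (*EFNA1* and *EPHB3*) and for 10.2% of all genes. The KO and WT libraries did not overlap, as for 11.7% of all genes tested. DESeq2 called the difference (adjusted p = 0.0108), as did edgeR without the filter on low counts (adjusted p = 8.69e-05), with the GC correction (adjusted p = 0.00755), without WT BMP-off replicate 1 (adjusted p = 0.0314) and without KO BMP-off replicate 3 (adjusted p = 0.0258), whereas the highest adjusted p of the alternatives was 0.752. This comparison and the BMP response of WT cells share the 3 WT BMP-off libraries. With BMP-on, KO cells had less *EFNA1* than WT cells by -0.19 on the log2 scale (standard error 0.0708), again without overlap.

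In the KO against WT contrast with BMP-on, which the choice of genes used, *EPHB3* did not overlap upwards and *EFNA1* did not overlap downwards, where 23.6% of all genes did not overlap in either direction. The next largest value in size after *EPHB3* was the -0.25 of *EFNB2* (standard error 0.302), whose groups overlapped, and the median of the 8 genes was 7.2e-05, beside 0.0025 over all genes tested.

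**Figure D3:**
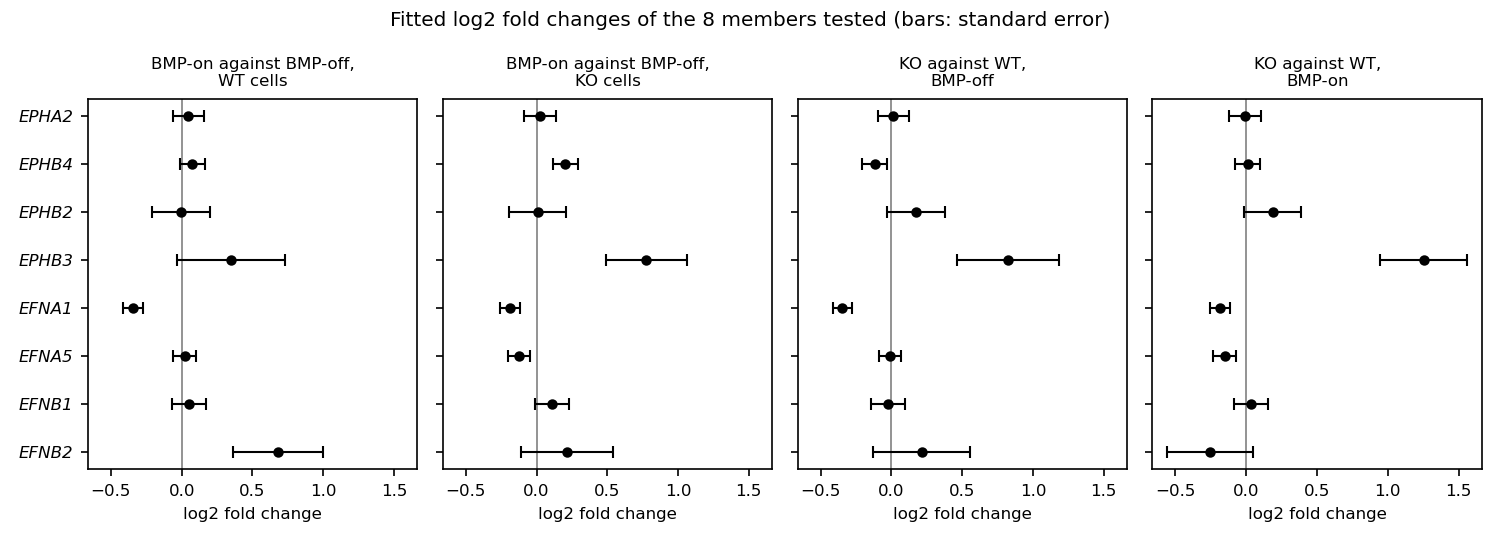
Fitted log2 fold changes of the 8 tested genes (points) with standard errors (bars) in 4 comparisons, on a shared axis. In the panels of KO against WT, *EPHB3* lies at 0.82 with BMP-off and at 1.25 with BMP-on. *EFNA1* lies below 0 in every panel, and *EFNB2* has wide errors throughout.

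*EFNA5* (ENSG00000184349, chromosome 5, 107376894 to 107670937, minus strand), a further A-type ligand that is known from axon guidance, reached 39.6, 36.0 and 34.6 CPM in WT BMP-off, 34.0, 41.1 and 36.8 CPM in WT BMP-on, 39.3, 37.2 and 33.0 CPM in KO BMP-off and 34.0, 34.1 and 32.6 CPM in KO BMP-on libraries. The groups overlapped. Its BMP response was 0.02 in WT cells (standard error 0.0791, edgeR adjusted p = 0.932), whereas KO cells had a value of -0.12 (standard error 0.0799, 95% interval -0.29 to 0.05, edgeR adjusted p = 0.293), and KO and WT cells differed by -0.15 with BMP-on (standard error 0.0797).

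*EFNB1* (ENSG00000090776, X chromosome, 68829021 to 68842160, plus strand) encodes a B-type ligand of craniofacial development. It lay between 4.82 CPM in KO BMP-off replicate 2 and 6.75 CPM in KO BMP-on replicate 1, with group means of 5.89 ± 0.0718, 6.11 ± 0.438, 5.79 ± 0.885 and 6.26 ± 0.521 CPM in WT BMP-off, WT BMP-on, KO BMP-off and KO BMP-on (SD, n = 3 each). No comparison separated the groups. Between KO and WT cells the log2 fold change was -0.02 with BMP-off (standard error 0.120, edgeR adjusted p = 0.957) and 0.03 with BMP-on (standard error 0.119). The BMP response was 0.05 in WT cells (standard error 0.119, edgeR adjusted p = 0.880), while that of KO cells was 0.11 (standard error 0.120, edgeR adjusted p = 0.556).

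*EFNB2* (ENSG00000125266, chromosome 13, 106489745 to 106535662, minus strand), the ephrin of arteries and a ligand of EPHB4, was as rare as *EPHB3*. WT libraries held 22, 11 and 7 counts with BMP-off (0.791, 0.478 and 0.318 CPM) and 20, 25 and 26 counts with BMP-on (0.844, 0.855 and 0.934 CPM). KO libraries held 18, 12 and 19 counts with BMP-off (0.628, 0.482 and 0.799 CPM) and 13, 18 and 21 counts with BMP-on (0.498, 0.940 and 0.816 CPM). The WT groups did not overlap, as for 23.9% of all genes tested, whereas the KO groups did. The BMP response was 0.68 in WT cells (standard error 0.319, unadjusted p = 0.0485, edgeR adjusted p = 0.323), while that of KO cells was 0.21 (standard error 0.325, edgeR adjusted p = 0.685). Without WT BMP-off replicate 1 the value in WT cells was 1.13 (adjusted p = 0.109) and without WT BMP-off replicate 3 it was 0.43 (adjusted p = 0.605), and these libraries held 22 and 7 counts. The difference between the responses was -0.47 (standard error 0.457, edgeR adjusted p = 0.707). It lay between -0.93 without WT BMP-off replicate 1 and -0.23 without WT BMP-off replicate 3, and the response in KO cells lay between 0.047 without KO BMP-on replicate 2 and 0.45 without KO BMP-on replicate 1.

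The libraries differed in how counts related to the GC content of the transcript, and some members moved with it. Spearman's rank correlation between the GC content of a gene and its deviation from the group mean ran from -0.603 in KO BMP-off replicate 2 to 0.586 in KO BMP-off replicate 3. In the former, *EPHA2* (60.3% GC), *EPHB4* (60.8% GC) and *EFNB1* (60.4% GC) deviated from their group means by -0.30, -0.26 and -0.25 on the log2 scale, while *EFNA5* (43.4% GC) lay 0.03 above. Of the other members, *EPHB2* (56% GC), *EPHB3* (62.2% GC), *EFNB2* (50% GC) and *EFNA1* (54.6% GC) deviated by -0.41, -0.365, -0.33 and -0.12, so low values there were not limited to the genes with the highest GC content. *EPHB3* did not follow the trend in every library. Its deviations went with the trend in KO BMP-off replicates 2 and 3 (-0.365 and 0.136). They went against it in WT BMP-off replicate 1 (0.46, correlation -0.425) and KO BMP-on replicate 1 (-0.23, correlation 0.369). After the correction for GC content, the KO BMP-off levels of *EPHA2* were 179, 153 and 166 CPM in place of 166, 123 and 171 CPM, and those of *EPHB4* were 74.9, 67.5 and 68.8 CPM in place of 69.3, 53.6 and 70.8 CPM. The BMP response of *EFNA1* under the correction was -0.35 in WT cells (adjusted p = 0.000157) and -0.23 in KO cells (adjusted p = 0.00511), where the uncorrected fit had not called it. For *EPHB3* the KO against WT value with BMP-on was 1.19 under the correction, whereas its BMP response in KO cells was 0.50 in place of 0.78 and the difference of its responses 0.245 in place of 0.43. Its corrected level was 0.8271 CPM in KO BMP-on replicate 1 and 0.8405 CPM in KO BMP-off replicate 1, so these groups then overlapped.

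**Figure D4:**
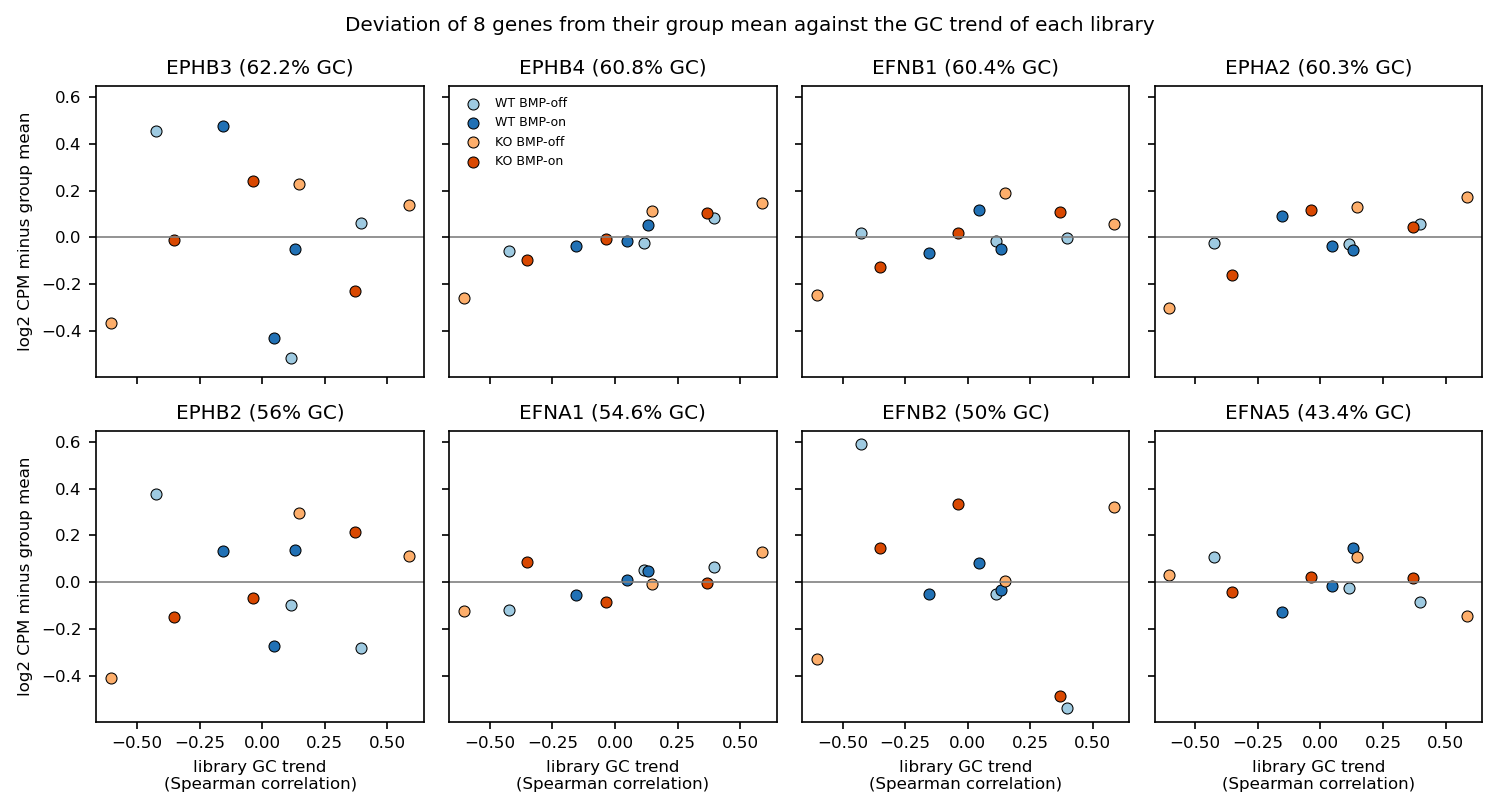
Deviation of the 8 tested genes from their group mean (log2 CPM) against the GC trend of each library, Spearman's rank correlation between GC content and deviation over genes, with 1 point per library and colors for the groups. Panels run from the highest GC content to the lowest. *EPHA2*, *EPHB4*, *EFNB1*, *EPHB2* and *EFNA1* lie lowest in the library at -0.603 (KO BMP-off replicate 2), whereas *EPHB3*, *EFNB2* and *EFNA5* do not. *EPHB3* does not follow the trend in every library.

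Of the 4 further family genes that could be tested, 3 had their highest mean in WT BMP-off, as *EFNA1* did, and 0 of the 4 were called by edgeR in any tested comparison. In WT cells 2 of them (*EFNA4* and *EPHA10*) had an unadjusted p under 0.05 for BMP, beside 15.3% of all genes, and DESeq2 called 1, beside 4.49%. Such a p was seen for 0 of the 4 with BMP in KO cells, beside 35.5% of all genes, for 3 between KO and WT cells with BMP-off, beside 10.2%, and for 2 in the interaction, beside 10.6%, and DESeq2 called 0 in each of these. *EFNA4*, *EFNA3* and *EFNA1* lie next to each other on the plus strand of chromosome 1, from 155063737 to 155134899. *EFNA4* reached 9.95, 12.2 and 12 CPM in WT BMP-off and 7.76, 9.20 and 8.62 CPM in WT BMP-on, without overlap, as for 23.9% of all genes tested. The fitted change was -0.41 on the log2 scale (standard error 0.112, edgeR adjusted p = 0.0541), which 9 of 24 alternatives called. *EFNA3* changed by -0.22 in the same comparison (standard error 0.127, edgeR adjusted p = 0.455), and its groups overlapped. With BMP-off, KO and WT cells differed by -0.34 for *EFNA4* (edgeR adjusted p = 0.366) and by -0.32 for *EFNA3* (edgeR adjusted p = 0.431), beside -0.35 for *EFNA1*, and the 3 values share the same WT libraries. The sources used here do not say whether strand was used in counting. Exons of *EPHB4*, *EPHB2* and *EFNB2* overlap exons of genes on the opposite strand over 69, 34 and 1822 bases, so that reads of the 2 strands cannot be told apart there, while those of *EPHB3*, *EPHA2*, *EFNA1*, *EFNA5* and *EFNB1* overlap none. Reads of *EFNA3* and *EFNA4* may also count for a readthrough gene that contains both. The kinase-deficient receptor *EPHA10* reached 2.48, 3.35 and 2.82 CPM in WT BMP-off and 1.77, 1.64 and 2.05 CPM in WT BMP-on, a change of -0.65 on the log2 scale (standard error 0.177, edgeR adjusted p = 0.0505) that 10 of 24 alternatives called. *EFNB3* had a log2 fold change of 0.32 in WT cells (standard error 0.189, edgeR adjusted p = 0.470).

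Downstream of the receptors, 46 genes of Eph signaling were listed and 44 were tested. With BMP in WT cells 2 of them rose and 0 fell, which is 4.55% beside 3.92% of all genes. These were *GRB10*, an adaptor that binds receptor tyrosine kinases (0.55, standard error 0.0793, edgeR adjusted p = 0.000521), and *LYN*, a kinase of the SRC family (0.32, standard error 0.0583, edgeR adjusted p = 0.00341). In KO cells 10 rose and 8 fell, which is 40.9% beside 22.0% of all genes (11.1% higher and 10.9% lower). The list was made with earlier results of these data known, so its shares are a description and not a test. The largest increases were those of *GRB10* (0.83, standard error 0.0768), *GRIP1*, a scaffold that binds the tail of B-type ephrins (0.70, standard error 0.164), and *LYN* (0.67, standard error 0.0576). The largest decreases were those of *RGS3*, which links B-type ephrins to G proteins (-0.36, standard error 0.0876), *TIAM1*, an activator of RAC1 (-0.23, standard error 0.0705), and *CRKL*, an adaptor (-0.21, standard error 0.0447).

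By role, 5 of the 9 tested adaptors rose and 1 fell with BMP in KO cells. Over the alternatives, between 5 and 12 genes of the whole list were called higher and between 3 and 11 lower. The counts were 6 and 3 without KO BMP-on replicate 1, 8 and 3 without KO BMP-off replicate 1 and 7 and 3 without KO BMP-off replicate 2. The median log2 fold change of the 44 genes was -0.01 in KO cells and 0.01 over all genes. In WT cells *LYN* had 53.8 ± 2.52 CPM with BMP-off and 67.5 ± 4.25 CPM with BMP-on, and in KO cells 61.1 ± 1.01 and 97.4 ± 5.01 CPM (SD, n = 3 each), whereas *GRB10* had 9.01 ± 0.240, 13.2 ± 0.695, 10.3 ± 0.119 and 18.3 ± 0.968 CPM in the same order. With BMP-off, 0 of the 44 genes were called between KO and WT cells by edgeR or DESeq2, beside 0.0407% and 0.186% of all genes. An unadjusted p under 0.05 in edgeR was seen for 11 of the 44, a larger share than the 10.2% of all genes. In the interaction edgeR called 0, beside 0.0931% of all genes, and DESeq2 called 1, beside 0.896%. Such a p was seen there for 10 of the 44, a larger share than the 10.6% of all genes, and without the filter on low counts edgeR called 2 of the 46.

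*EPHB2* and *EPHB3* being known Wnt targets, 13 other Wnt/TCF targets were listed, of which 10 were tested and *LGR5*, *ASCL2* and *LEF1* had 5, 0 and 0 counts. With BMP in WT cells *SOX9* (0.94, standard error 0.0778, edgeR adjusted p = 1.89e-06) and *NKD1* (0.76, standard error 0.201, edgeR adjusted p = 0.0459) rose, 2 of the 10 beside 3.92% of all genes. In KO cells 5 rose, led by *SOX9* (1.17, standard error 0.0751), *NOTUM* (0.92, standard error 0.254) and *NKD1* (0.50, standard error 0.171), and 2 fell, *RNF43* (-0.27, standard error 0.0729) and *CD44* (-0.27, standard error 0.0524), which is 70.0% beside 22.0% of all genes. Earlier results of these data were known when this list was made, so its shares are a description and not a test. *SOX9* was called in every alternative of both comparisons, whereas *NKD1* was called in 10 of 24 in WT and 8 of 24 in KO cells. Over the alternatives 2 to 5 of the genes were called higher and 1 to 2 lower in KO cells, with 2 and 2 without KO BMP-on replicate 1 and 3 and 1 without KO BMP-off replicate 1 or without KO BMP-on replicate 2. *SOX9* is a transcription factor of progenitor cells, *NKD1* and *NOTUM* restrain Wnt signaling, *RNF43* removes Wnt receptors and *CD44* is an adhesion receptor. The median of the 10 genes was 0.27 in KO cells, beside 0.01 over all genes. Between KO and WT cells with BMP-off, 0 of the 10 were called by edgeR or DESeq2, beside 0.0407% and 0.186% of all genes. An unadjusted p under 0.05 in edgeR was seen there for 4 of the 10, a larger share than the 10.2% of all genes. In the interaction 0 of the 10 were called by either tool, beside 0.0931% and 0.896%. There 2 of the 10 had an unadjusted p under 0.05 by edgeR, a larger share than the 10.6% of all genes. Without the filter on low counts, where 11 of the genes were tested, edgeR called 1 higher and 1 lower in the former comparison and 1 higher in the interaction.

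The genes with the pattern most like *EPHB3* over the 12 libraries, by Pearson's r of log2 CPM among 12837 genes with a mean of at least 50 counts, were *CYP2U1* (0.962), *SGTB* (0.957), *SASH1* (0.924), *GLTP* (0.908) and *CCNE1* (0.904), the last encoding cyclin E1. *CYP2U1* averaged 3.04, 3.77, 3.97 and 5.72 CPM in WT BMP-off, WT BMP-on, KO BMP-off and KO BMP-on, and *CCNE1* 21.9, 23.3, 23.3 and 26.0 CPM, both with the lowest mean in WT BMP-off and the highest in KO BMP-on. Within the family, *EPHB2* had an r of 0.564 and *EFNA1* one of -0.765, rank 12584 of 12837. The 5 genes were chosen by this correlation, over libraries that include those used to choose *EPHB3*. An order of group means shared with *EPHB3* thus follows from the choice. These points share libraries and depth, and at 5 to 29 counts per library the values of *EPHB3* carry counting error, so the coefficients are a description.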

How the data were processed

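RNA-seq counts of 12 libraries, 3 for each group, were analyzed. After removal of ribosomal reads and alignment to GRCh38 by GSNAP, the authors deposited counts of reads on exons of RefSeq genes (HTSeqGenie), without normalization. Those gene models are as the methods state, whereas the tables carry Ensembl identifiers, so the exons behind each count are not certain. The deposited RPKM values, which the authors normalized between libraries, served to compare levels between genes and for alternatives. Of the 58302 identifiers, 57532 received a symbol from GENCODE v44.

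Counts were tested in R 4.3.3 with edgeR 4.0.16 (TMM scaling, default filter on low counts, robust quasi-likelihood fit over all libraries), with Benjamini-Hochberg adjustment over 17188 genes within each comparison. The threshold for a call was an adjusted p of 0.05. CPM are counts relative to the TMM-scaled library size. The members and gene lists were chosen with earlier results of these data known. The text names the members, the other EPH and ephrin genes, up to 3 called genes in each direction from the Eph signaling and Wnt/TCF lists in each tested comparison, the 5 genes most correlated with *EPHB3*, and *MIB1* and *ID1*. Alternatives were DESeq2 1.42.0, limma 3.58.1 (voom with quantile normalization, or on log2(RPKM + 1) or log2(RPKM + 0.1), the former also without its minimum of 0.1 for the mean RPKM), other scalings and filters, a replicate term, a correction for GC content and each library left out. Replicate numbers were not used as pairs in the main fit, where the residuals of 2 of 18 same-numbered pairs correlated above 0.1. This cannot exclude pairing. Pairs with different numbers were not compared, and the residuals also hold the GC trends of the libraries. The paper states that cells were divided equally between the media with and without LDN, so BMP-on and BMP-off libraries may share a parent culture. On simulated data of 17021 genes, the procedure found 61% and 85% of genes changed by 0.5 and 1 on the log2 scale in the BMP response of KO cells. In the interaction it found 33% and 78%. False calls numbered 9 and 8. The simulation changed 100 genes at each size and drew counts independently. It took their spread from the trend over genes and held no GC trend of libraries. These shares may thus not hold for the libraries here or for genes with few counts. Promoter sequences are from RefSeq (GRCh38.p14).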

Additional observations from a re-analysis of the deposited data

How the results depend on the processing

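With a 2-fold threshold added, the call of *EFNA1* in WT cells was lost (0 genes). In KO cells 1 gene was called with BMP under upper quartile scaling, the GC correction, log2(RPKM + 1) or log2(RPKM + 0.1), 2 genes without the filter on low counts (*EFNA1* and *EPHB4*), and 0 to 1 when single libraries were omitted. For KO against WT with BMP-off 1 gene was called by DESeq2, without the filter or with the GC correction, and 0 to 1 when single libraries were omitted. The difference of *EPHB3* with BMP-on became 0.81 on log2(RPKM + 0.1) and 0.19 on log2(RPKM + 1), with or without its filter, as the pseudocount is near or above its level. Over all genes, 7 were called between KO and WT cells with BMP-off, against 32 with DESeq2, 83 with the GC correction and 233 without the filter, and 16 in the interaction, against 154, 162 and 318. Over every alternative these counts ran from 2 to 233 and from 3 to 318, that of BMP in WT cells (674) from 366 to 1347, with the last under the GC correction, and that of BMP in KO cells (3777) from 2314 to 5323, without KO BMP-on replicate 1 and without KO BMP-off replicate 3. *EPHB3* and *EFNB2* were dropped by a filter of 10 counts in every library. The replicate block changed no call of a member, and *EFNA1* had an edgeR adjusted p of 0.0657 for BMP in KO cells under it.

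In the tested comparisons the following values of members changed sign, and the cause was not tested. None passed the threshold in the fit reported or where its sign had changed. The BMP response of *EPHB4* in KO cells passed it in 2 other alternatives, with its sign unchanged. In the fit reported, the values that changed sign were at most 0.13 in size, apart from the BMP response of *EPHB4* in KO cells (0.20) and the KO against WT value of *EFNB2* with BMP-off (0.21). With the GC correction, the BMP response in WT cells was -0.0098 for *EPHA2* and -0.0097 for *EFNB1*, that in KO cells -0.19 for *EPHA2*, -0.074 for *EPHB2*, -0.027 for *EPHB4* and -0.11 for *EFNB1*, the interaction -0.046 for *EPHB2*, -0.040 for *EPHB4* and -0.10 for *EFNB1*, and KO against WT with BMP-off 0.083 for *EFNB1*. With limma-voom, the interaction was 0.012 for *EPHA2*, -0.042 for *EPHB2* and -0.020 for *EFNB1*, the BMP response in KO cells -0.067 for *EPHB2*, and KO against WT with BMP-off 0.017 for *EFNA5* and 0.0028 for *EFNB1*. For *EPHB2*, the BMP response in WT cells was 0.0035 with DESeq2 and 0.026 with the replicate block, which also gave an interaction of -0.015. Upper quartile scaling gave -0.0040 for *EPHB2* with BMP in KO cells and 0.0080 for *EFNA5* in KO against WT with BMP-off. On log2(RPKM + 1), with or without its filter, and log2(RPKM + 0.1), the BMP response in KO cells was -0.0015 and -0.0014 for *EPHA2* and -0.0054 and -0.0086 for *EPHB2*, that in WT cells 0.00022 and 0.0074 for *EPHB2*, the interaction of *EPHB2* -0.0056 and -0.016, and KO against WT with BMP-off 0.0015 for *EFNA5* on both scales.

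With single libraries omitted, the BMP response in WT cells ranged from -0.00027 to 0.074 for *EPHA2*, from -0.14 to 0.235 for *EPHB2*, from -0.058 to 0.085 for *EFNA5* and from -0.0068 to 0.083 for *EFNB1*. That in KO cells ranged from -0.11 to 0.098 for *EPHA2*, from -0.17 to 0.17 for *EPHB2* and from -0.0087 to 0.21 for *EFNB1*. KO against WT with BMP-off ranged from -0.062 to 0.15 for *EPHA2*, from -0.061 to 0.066 for *EFNA5*, from -0.12 to 0.093 for *EFNB1* and from -0.028 to 0.67 for *EFNB2*, and the interaction from -0.16 to 0.050 for *EPHA2*, from -0.235 to 0.17 for *EPHB2* and from -0.062 to 0.155 for *EFNB1*. The value of KO against WT with BMP-on, which was not tested, ranged from -0.072 to 0.065 for *EPHA2*. It ranged from -0.047 to 0.055 for *EPHB4* and from -0.029 to 0.0975 for *EFNB1*. With the GC correction it was -0.047 for *EPHB4* and -0.019 for *EFNB1*.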
